A study of Mus musculus with 2 samples.

Results

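In the library of lung γδ T cells labelled KO, 368 of 6634 kept cells (5.55%, 95% interval 5.01 to 6.13) were selected by a rule on transcripts of genes known from immature T cells. Such a cell had a unique molecular identifier (UMI, 1 counted transcript molecule) of at least 2 of the 4 genes Ccr9, Cd24a, Sox4 and Id3. It also had to have no UMI of Ly6c2, Cd8b1, Cd79a or a Trav15-dv6 gene, and a UMI in fewer than 3 of the 8 effector genes Tmem176a, Tmem176b, Cxcr6, Il18r1, Aqp3, Ccr6, Icos and Serpinb1a. They are called the selected cells here. Effector transcripts were not absent from them: Icos was seen in 19.3%, Cxcr6 in 10.3%, Ccl5 in 28.3% and Nkg7, a cytotoxic granule gene outside the rule, in 54.1%. Because measured counts of these genes chose the cells, their levels in them are a description and not a finding. The main comparison was with the 1336 kept KO cells that had both a Ly6c2 and a Ccl5 UMI, called Ly6c2 Ccl5 cells.

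Single-cell RNA sequencing covered 2 sorted libraries, 1 for each group, from lungs of uninfected mice aged 5 to 7 weeks. The KO library held Vγ1-positive γδ T cells of mice without Vγ4 and Vγ6 chains, whose strain the labels write as B6.Cg-Tcrgtm1lku(B6.Vg4-/-Vg6-/-). The WT library held γδ T cells of C57BL/6NCrl mice that the sort had kept as Vγ1-negative. How many animals went into a library is not given in the sources used here, and genotype, strain, sorted cells and library differ together and cannot be told apart. The deposited matrices held 6688 KO barcodes with 26436826 UMIs and 2520 WT barcodes with 9173997 UMIs. After the filter on genes and mitochondrial UMIs the median was 3521 UMIs per KO cell (6634 cells) and 3288 per WT cell (2505 cells). The libraries shared 23 barcodes, 3 of them among the selected cells. Since a group is 1 library, no difference has a replicate check and no test was run. Where a count was 0, the limit printed is 3 counts over the number of cells and not an interval, and it bounds the cells with a UMI, not those that express the gene. Every interval is an exact 95% interval of the counts, covers counting error only, and is narrower than the spread between mice or between cells would make it.

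γδ T cells develop in the thymus, where young cells carry CD24 (encoded by Cd24a) and lose it as they mature. CCR9 is a chemokine receptor of thymocytes and of T cells that home to the gut, SOX4 is a transcription factor of lymphocyte progenitors, and ID3, which restrains E proteins, is induced by signals of the T cell receptor (TCR). Mature γδ T cells mostly commit either to interferon-γ and killing (type 1), with Ly6c2, Ccl5, T-bet and NK receptors, or to IL-17.

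The counts behind the selection were small. On GRCm38, Ccr9 (ENSMUSG00000029530) lies on chromosome 9 at 123678439 to 123784330, Cd24a (ENSMUSG00000047139) on chromosome 10 at 43578284 to 43584265, Sox4 (ENSMUSG00000076431) on chromosome 13 at 28948919 to 28953713, and Id3 (ENSMUSG00000007872) on chromosome 4 at 136143497 to 136145755, and all are protein-coding genes. Sox4 had 584 UMIs in the selected cells, which is 342.5 CPM (counts per 1000000) of their 1705249 UMIs, and was seen in 78.3% of them. Cd24a had 553 UMIs and was seen in 65.8%, Ccr9 had 344 UMIs and was seen in 51.4%, and Id3 had 229 UMIs and was seen in 35.3%. Most of the cells therefore met the rule with a few molecules of each gene. The pair Cd24a and Sox4 alone admitted 105 cells, Ccr9 and Sox4 alone 52, and 9 cells had all 4 genes.

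Fewer cells were seen with each further required gene, and whether they form a gradient or separate groups was not tested. Of the 2140 KO cells that passed every exclusion, 1119 had none of the 4 required genes, 653 had 1, 264 had 2, 95 had 3 and 9 had 4, with median depths of 2558, 3130, 3852, 4875 and 4954 UMIs. Depth thus moved with the number of genes seen. In cells just outside, with 1 required gene, Ccr9 stood at 96.0 CPM, Cd24a at 106.3, Sox4 at 196.9 and Id3 at 49.1. When each kept KO cell was thinned to 2000 UMIs before the rule was applied, which left out 828 shallower cells, 230 of 5806 cells (3.96%, 3.47 to 4.50) were selected. The exclusions also overlapped with the required genes: of the 928 KO cells with at least 2 required genes, 279 had a Trav15-dv6 UMI, 200 a Cd8b1 UMI, 142 a Ly6c2 UMI, 119 at least 3 effector genes and 16 a Cd79a UMI.

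How often the required genes were seen together depended on depth, and since they chose the cells this is a description. Among thinned cells that passed the exclusions, Cd24a was seen in 10.3% of cells with none of the other required genes, in 18.3% (15.3 to 21.5) of those with 1 and in 17.6% (10.9 to 26.1) of those with 2. Ccr9 went from 11.2% to 17.1% and 15.8%, Sox4 from 17.2% to 25.6% and 25.3%, and Id3 from 5.91% (4.73 to 7.27) to 8.07% (6.09 to 10.5) and 6.67% (3.37 to 11.6), intervals that overlap. Without thinning, Cd24a went from 11.7% to 23.4% and 41.8%. The further step from 1 to 2 other genes was thus seen without thinning and not at equal depth.

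The 2 label markers that the rule did not use were Igfbp4, which encodes an insulin-like growth factor binding protein, and Itm2a, a membrane protein gene associated with thymocyte selection. Igfbp4 (ENSMUSG00000017493, chromosome 11, 99041244 to 99054392) had 285 UMIs or 167.1 CPM (148.3 to 187.7) in the selected cells and 314 UMIs or 54.9 CPM in the Ly6c2 Ccl5 cells, a log2 ratio of 1.61 (1.37 to 1.84). Itm2a (ENSMUSG00000031239, chromosome X, 107397099 to 107403376) had 231 UMIs or 135.5 CPM against 431 UMIs or 75.3 CPM, a log2 ratio of 0.85 (0.61 to 1.08). Both were thus higher in the selected cells, and Igfbp4 by more than 2-fold. At equal depth 19.4% of the selected cells had an Igfbp4 UMI against 5.98% of the Ly6c2 Ccl5 cells, and 17.9% had an Itm2a UMI against 12.8%. Without thinning 27.4% of the selected cells had an Igfbp4 UMI and 28.5% an Itm2a UMI.

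Against cells that passed the same exclusions with none of the required genes, the difference in Igfbp4 was smaller. These cells held Igfbp4 at 129.2 CPM, a log2 ratio of 0.37 (0.14 to 0.60), and 15.5% of them had a UMI at equal depth. Itm2a differed from them by 0.86 (0.59 to 1.14), about as much as from the Ly6c2 Ccl5 cells. Cells without any required gene thus held most of the level of Igfbp4 in the selected cells. Cells that the rule left out differed: at equal depth Igfbp4 stood at 105.5 CPM with a Cd8b1 UMI and 109.1 with a Trav15-dv6 UMI. It stood at 39.9 CPM with 3 or more effector genes, 45.3 in the Ly6c2 Ccl5 cells and 151.0 in the selected cells. What set these levels was not tested. In the 28 KO cells with at least 3 B cell or myeloid marker genes and no CD3 UMI, which should lack these genes, Igfbp4 was seen in 3 (10.7%) and Itm2a in 1 (3.57%) at a median of 2460.5 UMIs, against 4132.5 in the selected cells. After thinning, 0 of 17 such cells had an Igfbp4 UMI, which allows a share of up to 17.6%.

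**Figure D1:**
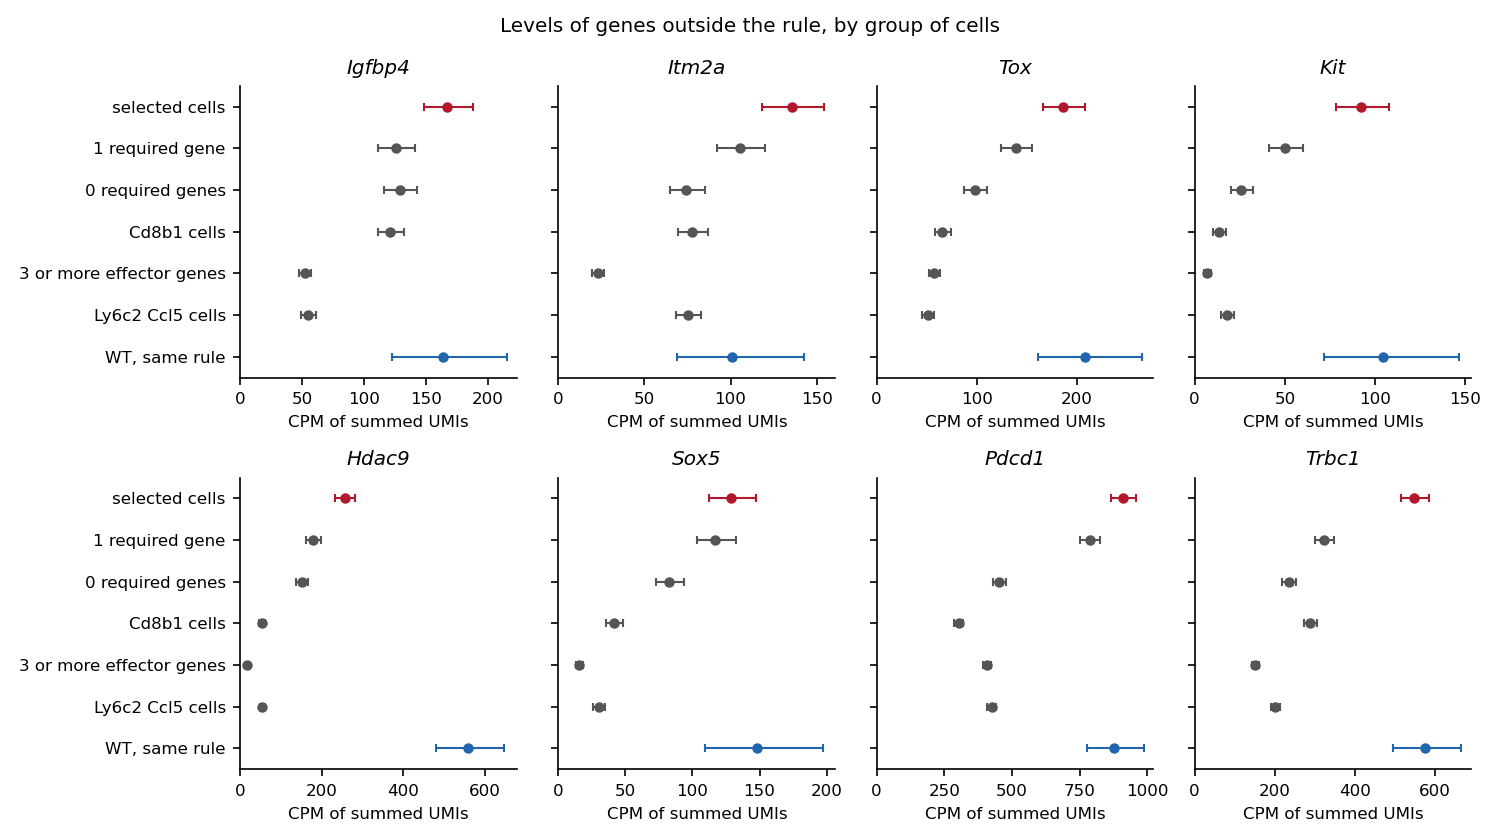
CPM of summed UMIs with exact Poisson 95% intervals (x axes, linear) of 8 genes in 7 groups of cells (y axis), 6 of the KO library and 1 of the WT library. Tox, Kit, Hdac9 and Trbc1 stood higher in the selected cells than in the Ly6c2 Ccl5 cells. The WT cells of the same rule held more Hdac9 (558.6 CPM) than the selected cells (256.3 CPM). With cells thinned before the rule, these were 295.5 and 293.5 CPM.

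Genes of thymic immaturity were represented only in part. Of the 23 genes on that list, 13 passed the minimum of 30 UMIs in both groups together and presence in at least 10% of the cells of either one. Of these, 3 were at least 2-fold higher in the selected cells than in the Ly6c2 Ccl5 cells and 1 at least 2-fold lower, with a median log2 ratio of 0.51 beside 0.16 over all genes. Over all 5722 genes that passed and were not in the rule, 2.45% were at least 2-fold higher in the selected cells and 1.35% at least 2-fold lower. Tox, an HMG-box factor of thymocyte development (ENSMUSG00000041272, chromosome 4, 6686353 to 6991557), had 317 UMIs or 185.9 CPM against 293 UMIs or 51.2 CPM, a log2 ratio of 1.86 (1.63 to 2.09). Patz1, a zinc finger transcription factor gene, stood at 80.3 CPM against 30.1, a log2 ratio of 1.42 (1.08 to 1.75). Cd1d1, whose product presents lipids and is found on thymocytes, differed by 1.19 (0.83 to 1.54). Cd2, an adhesion receptor gene, was the one on the lower side, at 102.6 CPM against 295.7, a log2 ratio of -1.53 (-1.76 to -1.30).

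The defining genes of early thymocytes were at or near 0. Rag1 and Rag2, which cut the receptor loci, and Ptcra, the pre-TCR chain gene, had 0 UMIs in the selected cells. Dntt, the terminal transferase gene, had 16 UMIs or 9.38 CPM in 11 cells against 8 UMIs or 1.40 CPM, a log2 ratio of 2.75 (1.44 to 4.18), and did not reach the minimum share of cells. Of the 16 Dntt UMIs, 11 lay in cells with 3 or 4 required genes. Xrcc6, whose product joins cut DNA ends, had 23 UMIs in 21 cells. Of these genes of receptor rearrangement, Rag1, Rag2 and Ptcra were thus not read, and Dntt was read in few cells.

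Genes of naive and recirculating T cells differed little. All 20 of that list passed, with 1 at least 2-fold higher, 1 at least 2-fold lower and a median log2 ratio of 0.22. Tcf7, encoding TCF-1, stood at 553.6 CPM against 345.1, a log2 ratio of 0.68 (0.57 to 0.79), and Lef1, its relative, at 787.0 against 583.6 (0.43, 0.34 to 0.52). Klf2, a factor of recirculation, was at 854.4 CPM against 802.8, and Il7r, the interleukin-7 receptor chain gene, at 578.8 against 851.9. Ifngr2, a chain of the interferon-γ receptor, was the gene past 2-fold on the higher side (1.39, 1.12 to 1.66), and Gpr183, an oxysterol receptor gene, the gene on the lower side (-2.24, -2.97 to -1.59). Naive genes were thus abundant in both groups.

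Type 1 and memory genes were compared with a group that a type 1 gene had chosen. Of 25 genes, 15 passed, 12 of them at least 2-fold lower and none at least 2-fold higher, with a median log2 ratio of -2.59. Of the 15, 10 passed only through the Ly6c2 Ccl5 cells, where they are high and so had to differ, and the count and the median describe that choice of cells. Nothing is read from them. Cd44, the memory marker, had 17 UMIs or 9.97 CPM against 344 UMIs or 60.1 CPM, a log2 ratio of -2.59 (-3.39 to -1.89). Klrd1, encoding CD94, differed by -2.07 (69.8 against 292.5 CPM), and Prf1, encoding perforin, by -1.98. Il2rb, the receptor chain gene for interleukin-2 and interleukin-15, was close to level at 517.2 CPM against 710.7. Gzma, encoding granzyme A, went the other way at 137.2 CPM against 74.4, in 31 (8.42%) of the selected cells, 1 of which held 23.9% of its UMIs, so that it did not pass the minimum.

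Of the 20 IL-17 genes, 4 had 0 UMIs in the selected cells. The list summed to 1731.1 CPM in them against 1340.4 in the Ly6c2 Ccl5 cells. Il17a and Il17f had 0 UMIs in the 368 cells, and Il23r, Il1r1 and Blk had 2, 2 and 1 UMIs. Of the 20 genes on the IL-17 list 8 passed against the Ly6c2 Ccl5 cells, with a median log2 ratio of -0.08. Pdcd1, which encodes the inhibitory receptor PD-1 and which γδ T cells of the IL-17 type also express, was at least 2-fold higher at 910.1 CPM against 425.0, a log2 ratio of 1.10 (1.01 to 1.19). The other gene past 2-fold on that side was 5830411N06Rik, encoding SCART2, also at 1.10. S100a4 was the gene on the lower side at -1.22.

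Genes of the TCR complex were near level. All 16 passed and 1 was past 2-fold, Fcer1g, an alternative signalling chain of activated and innate-like cells, at -2.42 (-2.94 to -1.94). Cd3e differed by 0.33 (0.25 to 0.41) and Cd247, the ζ chain gene, by 0.61 (0.48 to 0.74). Of the 14 genes that respond to TCR signals 10 passed, with a median log2 ratio of -0.43 and 1 past 2-fold, Bhlhe40, on the lower side. Cd69 stood at 95.6 CPM against 166.9 (-0.80, -1.05 to -0.56).

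**Figure D2:**
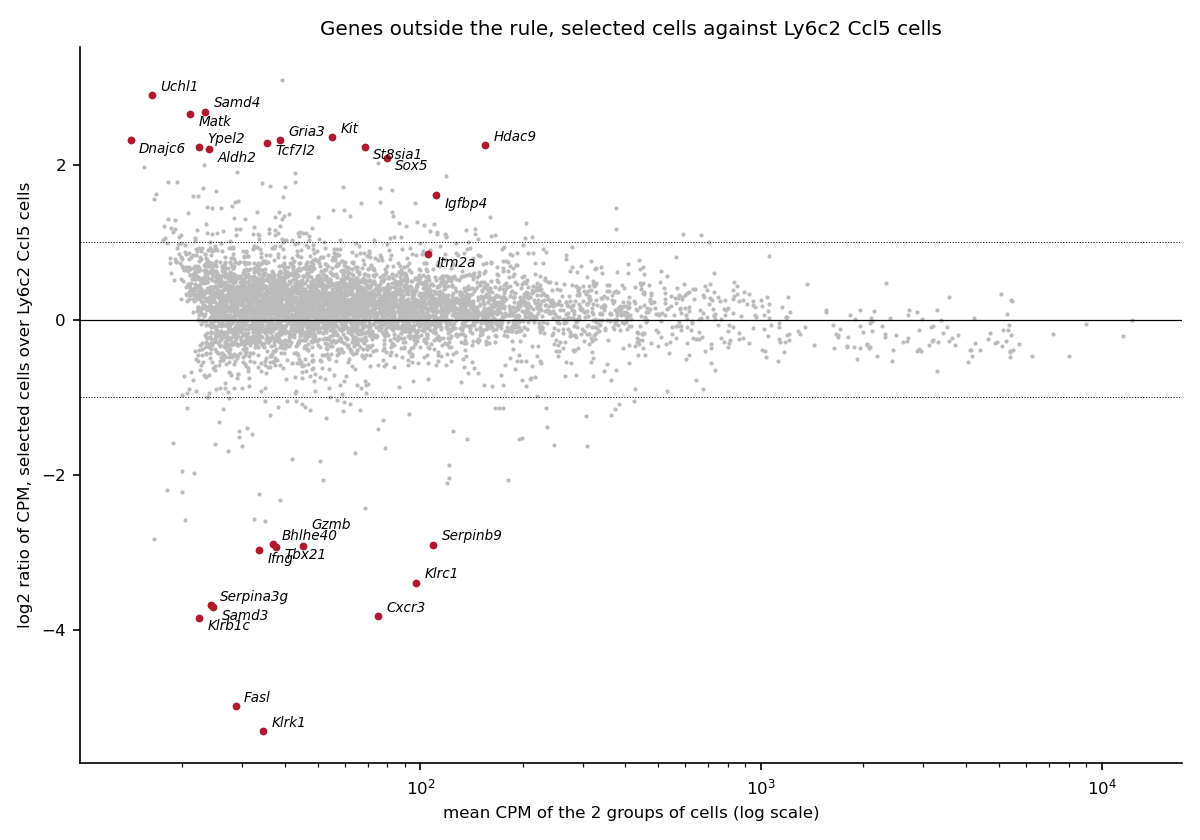
Log2 ratio of CPM, selected cells over Ly6c2 Ccl5 cells (y axis), against the mean CPM of the groups (x axis, log scale), 1 point for each of the 5722 genes that passed and were not in the rule, with dotted lines at 2-fold. The named genes range from Uchl1 at 2.90 down to Klrk1 at a bound of -5.30.

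Among genes named by the size of their ratio, Uchl1, a ubiquitin hydrolase gene (ENSMUSG00000029223, chromosome 5, 66676091 to 66687234), ranked highest. It had 49 UMIs or 28.7 CPM in the selected cells and 22 UMIs or 3.84 CPM in the Ly6c2 Ccl5 cells, a log2 ratio of 2.90 (2.15 to 3.70). Kit, the stem cell factor receptor of early thymocytes (ENSMUSG00000005672, chromosome 5, 75574916 to 75656722), had 157 UMIs or 92.1 CPM against 103 UMIs or 18.0 CPM, a log2 ratio of 2.35 (1.99 to 2.73). Hdac9, a class IIa histone deacetylase gene (ENSMUSG00000004698, chromosome 12, 34047580 to 34917095), had 437 UMIs or 256.3 CPM against 307 UMIs or 53.7 CPM, a log2 ratio of 2.26 (2.04 to 2.47). It was the most abundant of the 12 highest, and its UMIs came from 142 cells, the highest of which held 4.35% of them. Sox5, an HMG-box factor gene, stood at 129.0 CPM against 30.2, a log2 ratio of 2.09 (1.80 to 2.39).

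The other 8 of the 12 highest included genes of varied function, and of the 12 all but Hdac9 passed the minimum only through the selected cells. Matk, a kinase gene whose product restrains Src family kinases, differed by 2.66, Samd4, an RNA-binding protein gene, by 2.69, and Gria3, a glutamate receptor subunit gene, by 2.32. Tcf7l2, of the TCF/LEF family, differed by 2.28, and St8sia1, the ganglioside GD3 synthase gene, by 2.23. Dnajc6 differed by 2.31, Ypel2 by 2.23 and Aldh2, a mitochondrial aldehyde dehydrogenase gene, by 2.20. Each of these 8 had between 40 and 193 UMIs in the selected cells.

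All 12 of the lowest passed the minimum only through the Ly6c2 Ccl5 cells, a group picked by Ly6c2 and Ccl5, and are given as values. Klrk1, encoding NKG2D, had 0 UMIs in the selected cells against 396 UMIs or 69.2 CPM, a log2 ratio of at most -5.30 when the floor of 3 UMIs is used. Fasl, the death ligand gene, had 3 UMIs against 318, a log2 ratio of -4.98 (-7.27 to -3.42). Cxcr3, a chemokine receptor gene of type 1 cells, had 17 UMIs or 9.97 CPM against 803 UMIs or 140.3 CPM, a log2 ratio of -3.82 (-4.60 to -3.13). Tbx21, encoding T-bet, differed by -2.92, Ifng by -2.97 and Gzmb, encoding granzyme B, by -2.92. Klrb1c differed by -3.84, Klrc1, encoding NKG2A, by -3.39, and Serpinb9, the granzyme B inhibitor gene, by -2.90. Samd3, Serpina3g and Bhlhe40 completed the 12 at -3.70, -3.68 and -2.89.

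The cells without required genes passed the same exclusions, so both sides lacked Ly6c2 UMIs and had fewer than 3 effector genes. Against these 1119 cells, 0.861% of 5574 genes were at least 2-fold higher in the selected cells and 0.52% at least 2-fold lower. Kit was still 1.83 higher on the log2 scale (1.43 to 2.25), Uchl1 1.92 and Aldh2 1.55. Tox differed by 0.93 (0.69 to 1.16), Hdac9 by 0.76 (0.57 to 0.96) and Sox5 by 0.64 (0.37 to 0.91). Without thinning these were thus short of 2-fold. At equal depth Tox stood at 168.1 against 73.2 CPM, Hdac9 at 286.3 against 117.2 and Sox5 at 148.1 against 63.2. Each was then past 2-fold. Of the naive genes, Lef1 differed by 0.14, Ccr7 by 0.04, S1pr1 by 0.04 and Klf2 by 0.03. Without thinning, Kit, Uchl1 and Aldh2 stood at least 2-fold higher than in either group. All were named by size and passed only through the selected cells against the Ly6c2 Ccl5 cells. Kit and Uchl1 did so in both comparisons, and these ratios are given as values. Lef1, Ccr7, S1pr1 and Klf2 were thus near level with cells without the required genes, but other naive genes differed. At equal depth Tcf7 stood at 565.5 against 401.3 CPM and Cd27 at 510.0 against 348.7, whereas Il7r stood lower at 601.1 against 813.2. Of all 20 naive genes 1 was at least 2-fold lower and none at least 2-fold higher, with a median log2 ratio of 0.03.

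On the lower side, Cxcr3 differed by -2.44 and Klrd1 by -1.11, the 2 genes at least 2-fold lower among only 6 of the 25 type 1 genes that passed, with a median log2 ratio of -0.12. Cxcr3 was seen in 3.80% of the selected cells and passed only through the cells without required genes, whereas Klrd1 passed in both. Zbtb16, encoding PLZF, a factor of innate-like T cells, stood at 87.4 CPM against 209.8 (a log2 ratio of -1.26), but at equal depth it stood at 82.6 against 127.1 CPM and was seen in 13.1% against 16.8% of cells, so the difference was then under 2-fold. Rora stood at 130.8 against 273.8 (-1.07, -1.29 to -0.85). Gpr183 differed by -2.28. Of the thymic genes 2 of the 13 that passed were at least 2-fold higher, Patz1 (1.21, 0.83 to 1.59) and Ldhb (1.15, 0.64 to 1.67), and none was at least 2-fold lower. Patz1 and Ldhb passed only through the selected cells, where they are high, so nothing is read from this count.

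At equal depth the shares of cells gave the same order for the 4 genes shown. Kit was seen in 10.8% of the selected cells, 1.81% of the Ly6c2 Ccl5 cells and 2.56% of the cells without required genes. Hdac9 was seen in 28.2%, 6.06% and 8.81%, Sox5 in 25.6%, 3.70% and 8.66%, and Tox in 23.6%, 8.66% and 10.8%. Without thinning the shares in the selected cells were 18.5% for Kit and 38.6% for Hdac9. Kit and Tox had no UMI in the 28 cells without CD3 UMIs, which allows up to 10.7%, and Hdac9 was seen in 2 of them (7.14%).

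**Figure D3:**
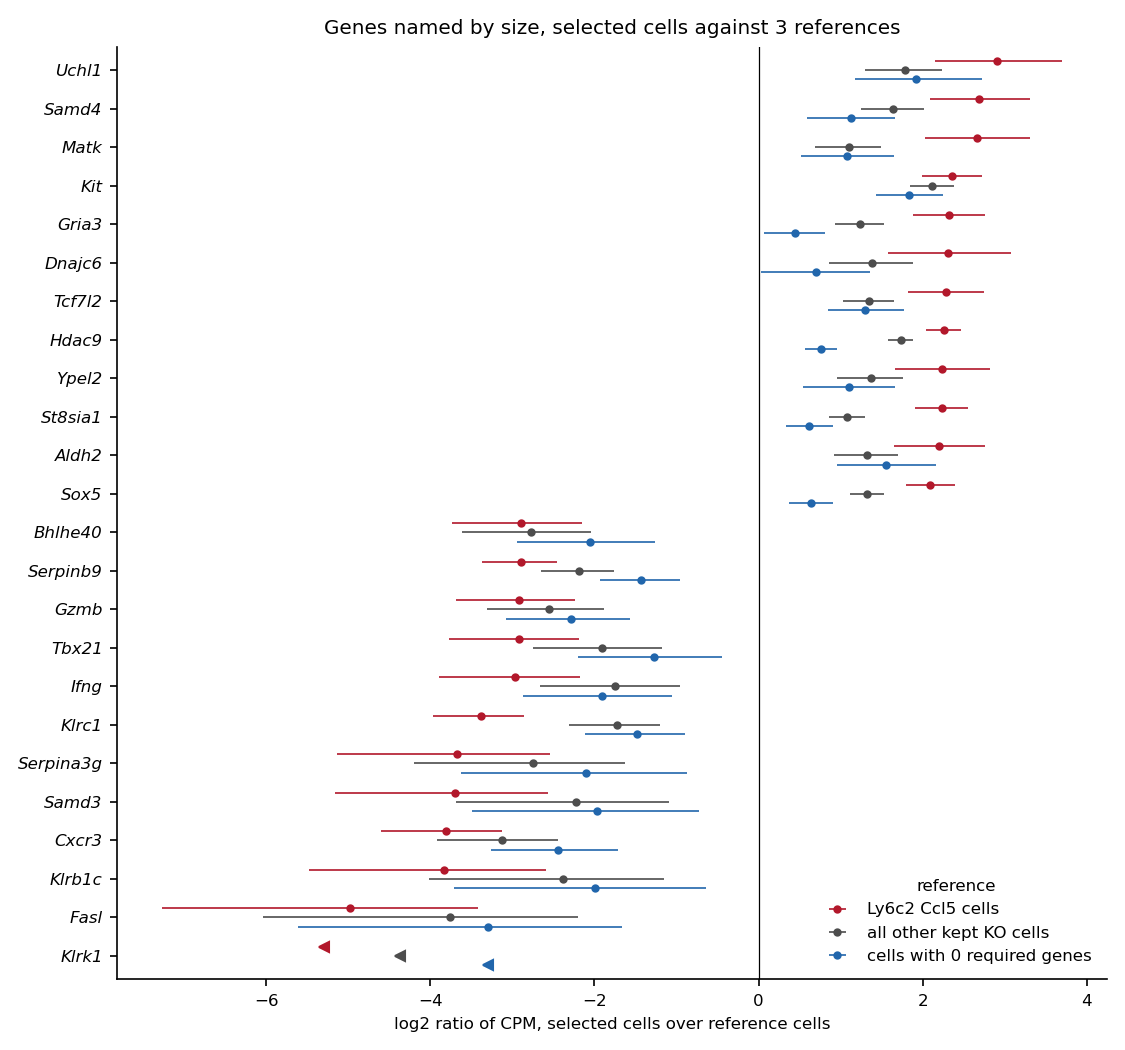
Log2 ratio of CPM with exact 95% intervals (x axis) of the 24 genes named by size (y axis), for the selected cells over each of 3 groups: Ly6c2 Ccl5 cells, all other kept KO cells and cells with none of the required genes. Arrowheads mark bounds, used for Klrk1 with 0 UMIs in the selected cells. The ratios of Uchl1, Kit and Aldh2 stayed above 1.5 against cells without required genes, and that of Gria3 was 0.44.

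The selected cells were also set against all 6266 other kept KO cells. There 0.989% of 5661 genes were at least 2-fold higher in the selected cells and 1.54% at least 2-fold lower. Pxdc1 had 2 UMIs in the selected cells against 2329 (-6.36), Il23r, the interleukin-23 receptor gene, 2 against 1862 (-6.04), and Ccr2, a chemokine receptor gene of these cells, 4 against 1916 (-5.08). Il2ra, encoding CD25, differed by -4.95, Ckb, a creatine kinase gene, by -3.93 and Atf3, a stress-response factor gene, by -3.46. All 6 passed only through the other KO cells, and of the 6 Il23r and Ccr2 are on the IL-17 list. Of the 20 IL-17 genes 11 passed, 3 of them only through the other KO cells, and 6 were at least 2-fold lower. The rule excluded cells with 3 or more of the 8 effector genes, several of which mark IL-17 cells, so this direction too is in part set by the choice.

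On the higher side the 6 named genes were Kit (2.12), Uchl1 (1.78), Hdac9 (1.74), Samd4 (1.64) and the histone genes Hist1h1d (1.70) and Hist1h2ae (1.59). All but Hdac9 passed only through the selected cells, so these too are given as values. Hist1h2ae had 206 UMIs in 95 of the selected cells, and 1 cell held 14.1% of them. Of the 17 genes of dividing cells 6 passed against all other KO cells, none past 2-fold, and the list summed to 1320.6 CPM against 1172.5. The histone genes were picked by size and that list was not, so their ratios are not set against each other.

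Another comparison was with the KO cells that the rule left out for Cd8b1. Against the 961 cells with a Cd8b1 UMI, 1.55% of 5666 genes were at least 2-fold higher in the selected cells and 0.565% at least 2-fold lower. Itm2a differed by 0.80 and Igfbp4 by 0.46. Against cells with 1 required gene, 0.179% of 5587 genes were at least 2-fold higher and 0.0358% at least 2-fold lower, and no gene of any list was past 2-fold.

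Levels were also read by the number of required genes seen, with which depth rises. Tox stood at 97.8 CPM in cells with none of the 4 genes, at 138.8 with 1, 152.2 with 2, 267.6 with 3 and 144.8 with all 4. Kit stood at 25.8, 50.0, 96.0, 65.9 and 268.9 CPM. Trbc1, a constant gene of the TCR β chain, went from 235.3 to 323.1, 528.5, 559.1 and 910.0 CPM. Cxcr3 went from 54.1 to 27.0 and 14.7 CPM and had 0 UMIs in cells with 3 or 4. Igfbp4 was at 129.2, 125.7, 173.0, 163.7 and 62.0 CPM. Of these genes, Trbc1 and Cxcr3 thus kept 1 direction throughout, and Tox, Kit and Igfbp4 did not, Tox only because of the group with all 4 genes. The group with all 4 genes holds 9 cells, so its levels rest on few molecules.

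After thinning, where cells with the same number of genes seen have the same depth, Tox stood at 81.3, 140.0, 152.9 and 250.0 CPM from 0 to 3 required genes. Kit stood at 24.2, 41.5, 94.7 and 62.5 CPM, with 24 cells in the last group. Trbc1 stood at 273.8, 350.4, 347.1 and 562.5 CPM. At equal depth Tox thus kept 1 direction and Trbc1 did not.

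**Figure D4:**
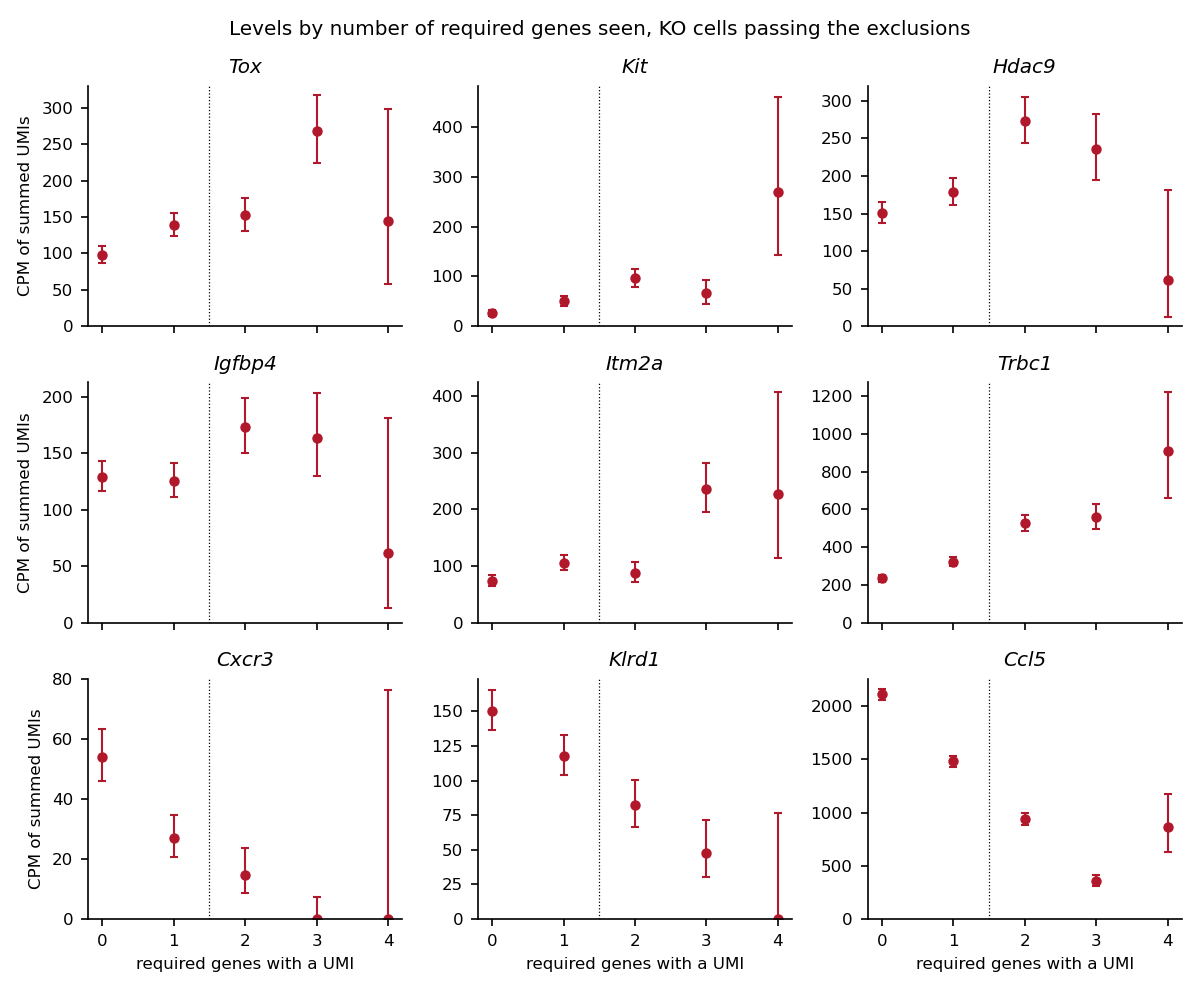
CPM of summed UMIs with exact Poisson 95% intervals (y axis) of 9 genes in KO cells that passed every exclusion, by the number of required genes seen, from 0 to 4 (x axis; 1119, 653, 264, 95 and 9 cells). The dotted line marks the threshold of the rule. Cxcr3 went down from 54.1 CPM to 0 and Trbc1 up from 235.3 to 910.0 CPM, while Igfbp4 showed no steady order.

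Splits of the selected cells by genes of the rule were chosen after the values were seen, rest on cells of 1 library and are descriptions. The 142 cells with Cd24a and without Ccr9 UMIs held more Hdac9 than the 89 with Ccr9 and without Cd24a, at 409.4 against 130.8 CPM, a log2 ratio of 1.65 (1.20 to 2.12). Tox was at 251.9 against 98.8 CPM (1.35, 0.83 to 1.91) and Kit at 120.0 against 48.0 (1.32, 0.57 to 2.15). Igfbp4 went the other way, with 100 UMIs against 86 UMIs or 229.5 CPM (-0.61, -1.04 to -0.18), as did Il7r, at 458.9 against 824.7 (-0.85, -1.08 to -0.61), and Klf2, at 734.8 against 1088.9 (-0.57, -0.76 to -0.37). In this split the first 3 genes were higher on the Cd24a side and the other 3 on the Ccr9 side.

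A Ccl5 UMI, which the rule allowed, was present in 104 of the selected cells. These cells held more Klrd1 than the other 264 (161.4 against 32.2 CPM, a log2 ratio of 2.32, 1.75 to 2.92) and less Igfbp4 (78.7 against 203.4 CPM, -1.37, -1.90 to -0.88). Il7r was higher in them as well (0.62, 0.44 to 0.81). Kit stood at 133.2 against 75.2 CPM (0.82, 0.34 to 1.30). Cells with 3 or 4 required genes, also 104, held more Itm2a than those with 2 (234.9 against 88.2 CPM, 1.41, 1.03 to 1.80) and more Gzma (320.5 against 50.2 CPM). The Gzma UMIs of the former came from 14 cells, 1 of which held 31.8% of them.

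The γ chain genes bear on the labels. Tcrg-V1, the chain used in the sort, had 381 UMIs or 223.4 CPM and was seen in 51.6% of the selected cells, and in 30.5% (25.7 to 35.6) at equal depth, against 22.4% of the Ly6c2 Ccl5 cells and 27.6% of the cells without required genes. Tcrg-V6 had 0 UMIs in the 368 cells, so that a share of up to 0.815% is allowed. By contrast, Tcrg-V4 had 77 UMIs or 45.2 CPM and was seen in 16.8% of the selected cells, or 7.69% (5.13 to 11.0) at equal depth, against 6.85% and 5.97% in the other groups. In the 28 cells without CD3 UMIs neither chain was seen, which allows up to 10.7%. Tcrg-V4 transcripts thus went against the label of the library, and every direction given for it rests on that label. The cause was not tested.

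Among δ chain genes outside the dv6 genes, which the rule excluded, the selected cells held 1627 UMIs. Trdv2-2 had 511 of them in 32.1% of cells, Trdv1 473 in 19.3%, Trdv5 275 in 21.7%, Trav21-dv12 203 in 44 cells and Trav13-4-dv7 158 in 8.70%. Exactly 1 δ gene was seen in 213 cells, none in 91 and more than 1 in 64. Among the 213, Trav21-dv12 was the only δ gene in 31 (14.6%), against 6.18% of the 502 such cells without required genes. Trdv2-2 was the only one in 34.7% against 39.2%.

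Hdac9 varied with the δ gene, a pattern chosen after its values were seen. In the 31 selected cells with Trav21-dv12 (ENSMUSG00000076863, chromosome 14, 53875984 to 53876752) as the only δ gene, Hdac9 stood at 995.7 CPM (831.9 to 1182) and was seen in 26 cells, the highest of which held 14.6% of its UMIs. It stood at 270.1 CPM in those with Trdv5, 212.9 with Trdv2-2, 143.9 with Trdv1 and 50.6 with Trav13-4-dv7. In cells without required genes, Trav21-dv12 cells also stood high, at 935.3 CPM (739.3 to 1167, 31 cells). Kit was at 237.4 CPM in the selected Trav21-dv12 cells and between 25.3 and 91.7 CPM with the other 4 δ genes, but at 36.0 CPM in Trav21-dv12 cells without required genes. Tox stood at 398.3 CPM against 119.9. High Hdac9 thus went with Trav21-dv12 with or without the required genes, and high Kit and Tox were seen with both together. The Trav21-dv12 segment can join α as well as δ chains, and the counts do not tell which.

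**Figure D5:**
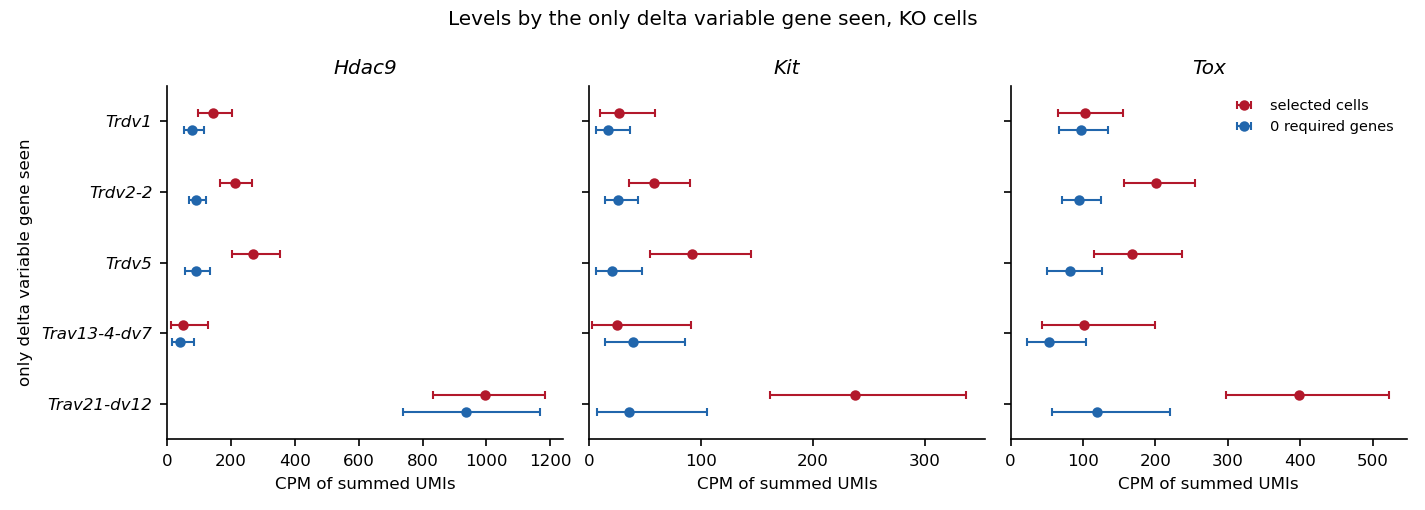
CPM of Hdac9, Kit and Tox with exact Poisson 95% intervals (x axes) by the only δ gene seen in a cell (y axis), in the selected cells (red) and in cells with none of the required genes (blue). Trav21-dv12 cells stood highest for Hdac9 in both groups (995.7 and 935.3 CPM), and for Kit only the selected ones did (237.4 against 36.0 CPM).

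Transcripts of αβ T cells and of other cells were counted beside these results. Trbc1 (ENSMUSG00000076490, chromosome 6, 41538218 to 41539881) stood at 548.3 CPM in the selected cells against 200.8 in the Ly6c2 Ccl5 cells, a log2 ratio of 1.45 (1.32 to 1.58), and Trbc2 at 1349.4 against 762.6 (0.82, 0.75 to 0.90). Trac was level, with 48 UMIs or 28.1 CPM against 27.8, and was seen in 33 of the selected cells. Against cells without required genes Trbc1 differed by 1.22 (1.08 to 1.37). The 5 αβ markers summed to 1939.9 CPM against 1004.6, and none was at 0. Of the selected cells 34 of 368 had 3 or more, against 64 of 1336 Ly6c2 Ccl5 cells, a smaller share. Without the cells that had a Trac UMI in either group the log2 ratios against the Ly6c2 Ccl5 cells were 1.49 for Igfbp4, 0.89 for Itm2a, 2.45 for Kit, 2.38 for Hdac9, 1.83 for Tox, 1.42 for Trbc1 and 0.86 for Trbc2.

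Markers of other cell types were low. B cell markers summed to 122.0 CPM against 229.8, with 5 of 13 at 0, myeloid markers to 163.0 against 223.5, with 2 of 13 at 0, and NK cell and ILC markers to 11.7 against 61.2, with 5 of 9 at 0. Plasmacytoid dendritic cell markers summed to 188.8 against 202.2 CPM, with 4 of 9 at 0, and erythroid and platelet markers to 2.35 against 4.19, with 5 of 7 at 0. Lung epithelial and endothelial markers were the exception and summed to 276.2 CPM against 60.1, with 2 of 11 at 0. Of the 471 UMIs 1 cell held 266, and the 1 gene of that list that passed was higher by 0.95 on the log2 scale. Scgb1a1, the club cell secretory protein gene, was seen in 5 cells. Of 10 integrin and adhesion genes 9 passed against the Ly6c2 Ccl5 cells and 1 was past 2-fold, Itgae, encoding CD103, at 43.4 CPM against 17.6 (1.30, 0.85 to 1.74). Handling stress genes summed to 8054.5 CPM against 9703.5, and 9 of the 10 that passed were below 0, none past 2-fold, with a median log2 ratio of -0.32. Against all other KO cells the 12 that passed were all below 0, with 1 past 2-fold and a median of -0.39. The part of handling in the results was not tested.

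The same gene rule applied to the WT library, which was sorted as Vγ1-negative, selected 69 of 2505 cells (2.75%, 2.15 to 3.47). After thinning the share was 2.07% (1.51 to 2.77) in WT and 3.96% in KO. Of 6112 genes, 3.06% were at least 2-fold higher in the selected KO cells and 3.83% at least 2-fold lower. Igfbp4 (0.03, -0.40 to 0.48), Itm2a (0.42, -0.11 to 1.01), Tox (-0.16, -0.55 to 0.24), Trbc1 (-0.07, -0.30 to 0.17) and Pdcd1 (0.05, -0.13 to 0.24) had intervals that included 0. Without thinning, these genes thus stood at like levels in the cells of both libraries, within intervals that allow a difference of up to 2-fold for Itm2a. Trbc1 did not at equal depth. With cells thinned before the rule, it stood at 369.6 CPM (316.1 to 429.5) in KO and 806.8 (630.1 to 1018) in WT.

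Some genes differed. Klf2 stood at 854.4 CPM in the selected KO cells against 214.6 in the WT cells, a log2 ratio of 1.99 (1.64 to 2.37), and Zbtb16 at 87.4 against 25.2 (1.79, 0.78 to 3.03). Cd163l1, encoding SCART1, differed by 2.28 (1.21 to 3.62). Without thinning, Hdac9 was lower in KO at 256.3 CPM against 558.6 (-1.12, -1.38 to -0.86), as were Stmn1 (-2.01), a gene of dividing cells, and Maf (-1.87), a factor of IL-17 cells. With cells thinned before the rule, Hdac9 stood at 293.5 CPM (246.1 to 347.4) in KO and 295.5 (193.0 to 432.9) in WT. The difference in Hdac9 was thus not seen at equal depth. Tcrg-V1 was higher by 1.98 and Tcrg-V4 lower by 1.59 on the log2 scale in KO, the chains on which sort and genotype differ. Tcrg-V1 was seen in 14 of the 69 WT cells (20.3%, 56.8 CPM), which went against the Vγ1-negative sort of that library. Trdv5 was seen in 55.1% of the WT cells and Trdv1 in 2.90%, where the selected KO cells had 21.7% and 19.3%.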

How the data were processed

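The authors deposited raw UMI counts per gene and barcode, made with Cell Ranger. The submitters' processing notes and the file headers give version 7.0 and mm10 (GRCm38), whereas the methods name an older release. The labels name a 3′ protocol and the methods a V(D)J kit. For annotation release, strand and introns, the settings were not given in the sources used here. Barcodes with over 200 and under 4000 genes and under 10% mitochondrial UMIs were kept, which left more cells than the study gives.

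The members and gene lists were chosen with earlier results of these data known. UMIs were summed per group and scaled to CPM. Log2 ratios had exact conditional 95% intervals, sums exact Poisson and shares Clopper-Pearson intervals, and a sum of 0 was set to 3 UMIs. A gene passed with at least 30 UMIs over both groups and a UMI in at least 10% of cells of either, and rule genes were left out of counts over all genes. Equal depth means cells drawn down to 2000 UMIs (seed 0).

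Genes named were the rule genes, label markers and list genes (highest level or largest ratio as examples), the 12 highest and 12 lowest ratios against Ly6c2 Ccl5 cells and the 6 highest and 6 lowest against other KO cells. TCR, immunoglobulin, sex-linked, ribosomal, mitochondrial and predicted genes were left out of those by size. Dntt, Gzma, splits, δ genes and the WT genes were chosen after their values were seen. Doublets were not removed: scrublet marked 1 of 6634 cells (0.0151%) and so did not work. Positions are from GENCODE M21, in which 32158 of 32285 identifiers matched. Python 3.11.15, numpy 2.4.6, scipy 1.17.1, pandas 2.3.3, scanpy 1.11.5 and matplotlib 3.10.9 were used, and the steps were tested on simulated counts.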

Additional observations from a re-analysis of the deposited data

How the results depend on the processing

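The number of selected cells (368) was 230 with cells thinned first, 104 with at least 3 required genes and 1021 with at least 1, and their share (5.55%) was 3.96%, 1.57% and 15.4%, or 7.21% with Cd8b1 UMIs allowed and 7.97% with dv6 UMIs allowed. The Igfbp4 ratio (1.61) was 1.99 with cells thinned first, 1.30 with Ly6c2 Ccl5 cells drawn to the depth of the selected cells, 0.80 against all other KO cells and 0.37 against cells without required genes. The Itm2a ratio (0.85) was 1.64 with at least 3 required genes. The type 1 genes at least 2-fold lower (12) were 3 against all other KO cells and 2 against cells without required genes, and the thymic genes at least 2-fold higher (3) were 5 with cells thinned first. Genes at least 2-fold higher (140) were 335 with at least 3 required genes, 59 with at least 1, 56 and 48 against those other groups, and 364 with no minimum share of cells. Genes at least 2-fold lower (77) were 144, 29 against cells without required genes, and 328 with no minimum share. Thinning gave 30.5% for Tcrg-V1, 7.69% for Tcrg-V4 and 2.07% for the WT share. Of 480 values of 32 named genes under 15 alternatives, 109 moved out of the interval of the main comparison. A change of sign was counted only for genes at least 2-fold apart in the main comparison, and none of those had one. Removing 33 selected cells with a Trac UMI, 45 with UMIs of other cell types, 30 above the 95th percentile of depth or 3 with shared barcodes changed none of these counts by over 1.5 times. The removal of Trac cells and shared barcodes and the other reference groups were chosen after seeing the data. Small counts limit genes near 30 UMIs. No paired analysis was possible because a group is a single library, and none could be left out.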
